A study of Mus musculus with 6 samples.

Results

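Coenzyme A synthesis and breakdown was described through 10 genes of mouse liver, *Pank1*, *Pank2*, *Pank3*, *Pank4*, *Ppcs*, *Coasy*, *Nudt7*, *Nudt19*, *Vnn1* and *Vnn3*. They were taken by gene symbol, and all 10 were found among the 24421 genes of the deposited table. The study sequenced hepatic mRNA of 3 wild-type (WT) and 3 heterozygous PAI-1 deficient (*Pai-1*+/-) C57BL/6 mice, 21 weeks old in the sample labels. The study's text gives a slightly lower age and calls the WT mice littermate controls. PAI-1 inhibits the plasminogen activators, and the study used the heterozygotes to see whether changes in liver transcripts under a PAI-1 inhibitor could come from other actions of the drug. All mice ate standard chow freely and none received a drug. The strain is C57BL/6 in the labels and C57BL/6 J in the study's text, and the heterozygotes came from *Pai-1*-/- and WT parents, so the allele was absent from every tissue on 1 chromosome and not from hepatocytes alone. The labels state male sex for the WT mice, and the study's text states it for both genotypes.

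The genotypes could not be compared here. The count columns are headed by numbers that match no sample label, and the fold changes and p-values in the second deposited table are the authors' own comparison and were not used. The values below are therefore the authors' mean normalized count of each gene, the mean over the libraries of reads scaled for library depth, with both genotypes pooled and without an SD or a value for each mouse. They describe how strongly the liver expressed each gene and say nothing of a difference between WT and *Pai-1*+/- mice. In whole tissue, a lower level from fewer cells of a type and from less RNA per cell cannot be told apart.

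Coenzyme A carries acyl groups in fatty acid oxidation, lipid synthesis and the citric acid cycle. Cells make it from the vitamin pantothenate, which pantothenate kinases phosphorylate in the rate-controlling step. A cysteine is then joined on and decarboxylated, and a bifunctional enzyme adds the nucleotide part. In the other direction, Nudix hydrolases cleave coenzyme A inside organelles, and vanins cleave pantetheine outside the cell or at its surface, which returns pantothenate. The liver is rich in coenzyme A, and its content is known to rise in fasting.

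The mean normalized counts of the whole table summed to 30045982, after the authors' scaling, and the 10 genes took 0.125% of it. Expressed genes, defined as those with a mean normalized count above 10, numbered 12971, and all 10 genes were among them. The tissue was liver by its markers. The list of 8 hepatocyte markers summed to a mean normalized count of 3097130. Albumin (*Alb*), the highest gene of the table at 2155550, made up most of that sum. Another of the 8, *Ass1*, was listed at only 34.5, rank 11420 of expressed genes, and is taken up below. By comparison, 6 Kupffer cell markers summed to 6220.4, 6 endothelial markers to 4419, 5 stellate cell markers to 4713 and 3 cholangiocyte markers to 412. Of 4 kidney tubule markers none exceeded 10, and their sum was 1.83. Of 3 red cell markers, *Alas2* was at 2136 and the globin genes *Hba-a1* and *Hbb-bs* were listed at 0.

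Long transcripts collect more reads, so levels of different genes were compared per kilobase of the longest annotated transcript. On that scale the median expressed gene stood at 129. *Nudt7* was highest of the 10 at 2262 and *Pank4* lowest at 120.1, an 18.8-fold range, and the median of the 10 was 1036. The range from highest to lowest was 20.4-fold with all exons joined, 77.8-fold with the coding sequence as length and 39.0-fold without division by length. Of these 10 genes, 6 lay in the top 25% of the 12499 expressed genes with an annotated length, a range that began at 393 per kilobase. The order from the top was *Nudt7*, *Vnn1*, *Coasy*, *Pank1*, *Vnn3*, *Nudt19*, *Ppcs*, *Pank3*, *Pank2* and *Pank4*. No spread between mice was available, so neighbours in this order cannot be said to differ, and *Vnn1*, *Coasy* and *Pank1* in particular lay between 1710.1 and 1903. Changing the length changed the order, at the top and also lower down. With all annotated exons joined, 4 of 45 pairs of genes swapped, all of them among *Nudt7*, *Vnn1*, *Coasy* and *Pank1*, and *Vnn1* became the highest. With the coding sequence as length 6 pairs swapped, *Pank1* with *Coasy* and *Vnn1*, *Pank2* with *Ppcs*, and *Pank3* with *Ppcs*, *Nudt19* and *Vnn3*. The level per kilobase then rose between 1.1-fold for *Pank4* and 6.65-fold for *Pank3*. Without division by length 6 pairs also swapped, *Pank1* with *Coasy*, *Nudt7* and *Vnn1*, *Pank2* with *Ppcs*, and *Pank3* with *Ppcs* and *Nudt19*.

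**Figure D1:**
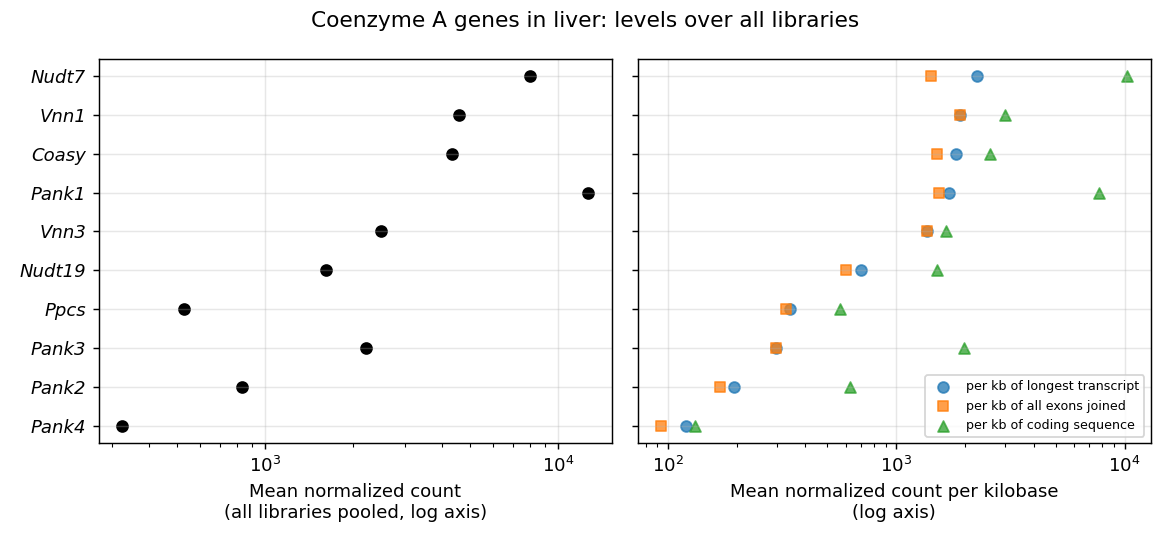
Authors' mean normalized count of the 10 coenzyme A genes over all libraries (left, log axis) and the same divided by 3 measures of gene length in kilobases (right, log axis). Each point is 1 gene under 1 measure, there are no error bars because no values for single mice were used, and *Pank1* leads on the left at 12679 while *Nudt7* leads on the right for the longest transcript at 2262.

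Pantothenate kinases start the pathway, and *Pank1* was the main kinase transcript of this liver. Its mean normalized count was 12679, rank 311 of the 12971 expressed genes. The other genes of the family were at 2201 (*Pank3*), 835 (*Pank2*) and 325 (*Pank4*). PANK1, PANK2 and PANK3 are active kinases, whereas PANK4 lacks kinase activity and carries a phosphatase domain. Per kilobase of longest transcript *Pank1* stood at 1710.1, 5.73-fold above *Pank3* (298) and 14.2-fold above *Pank4* (120.1), with *Pank2* at 196. *Pank1* therefore made up 73.6% of the summed level of the 4 genes, *Pank3* 12.8%, *Pank2* 8.42% and *Pank4* 5.17%. The share of *Pank1* hardly depended on the length used, with 73.2% for all exons joined, 73.8% for the coding sequence and 79.0% without division by length. The smaller shares moved more, that of *Pank4* to 1.26% with the coding sequence and 2.03% without division by length. That of *Pank2* moved to 5.21% without division by length, and that of *Pank3* rose to 18.97% with the coding sequence. The ratio of *Pank1* to *Pank3* was 5.14 with all exons joined, 3.89 with the coding sequence and 5.76 without division by length. The ratio of *Pank1* to *Pank4* was 16.5 with all exons joined, 58.4 with the coding sequence and 39.0 without division by length. Among expressed genes, 7.44% were at or above *Pank1* per kilobase, 30.5% at or above *Pank3*, 40.0% at or above *Pank2* and 51.7% at or above *Pank4*. These places depended on the length. For *Pank3* the share was 24.6% with all exons joined, 15.3% with the coding sequence and 14.6% without division by length. For *Pank4* it was 50.3%, 66.8% and 56.8%.

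The kinase genes are scattered over the genome. In GENCODE M21 on GRCm38, the assembly also named mm10, *Pank1* (ENSMUSG00000033610) lies on chromosome 19 from 34806940 to 34879455 on the minus strand. *Pank2* (ENSMUSG00000037514) lies on chromosome 2 from 131262495 to 131299188, *Pank3* (ENSMUSG00000018846) on chromosome 11 from 35769484 to 35791285, and *Pank4* (ENSMUSG00000029056) on chromosome 4 from 154964123 to 154980938, each on the plus strand. The longest transcripts of *Pank1*, *Pank2* and *Pank3* each have 7 exons, against 20 in *Pank4*, whose coding sequence of 2460 bases is the longest of the 4. Global alignment of the longest coding sequences gave 74.3% identical bases between *Pank1* and *Pank2*, 72.3% between *Pank1* and *Pank3* and 73.8% between *Pank2* and *Pank3*. *Pank4* matched *Pank1* at 63.8% of aligned bases, *Pank2* at 66.7% and *Pank3* at 69.2%. These percentages count aligned bases only and leave gaps out, so that 1098 of the 2460 *Pank4* bases were compared with *Pank3*. By the same count *Nudt7* and *Nudt19* were identical at 61.3%. No value for unrelated sequences was computed.

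*Pank1*, *Pank2* and *Pank3* each also host a microRNA gene, and the mature sequences are shown because they are near copies of each other. *Mir107*, *Mir103-2* and *Mir103-1* lie on the strand of their host, in intron 5 of the longest transcript of *Pank1*, *Pank2* and *Pank3* respectively, and overlap no exon of it. *Mir103-1* and *Mir103-2* give the same 3p product. Bases 2 to 8, the seed that pairs with targets, are in capitals in the RefSeq sequences (GRCm38.p6), and all 3p products share it.
mmu-miR-107-3p: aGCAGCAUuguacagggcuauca
mmu-miR-103-3p: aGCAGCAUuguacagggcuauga

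The other arm of each hairpin also had 1 seed in common across the 3 genes, again in capitals.
mmu-miR-107-5p: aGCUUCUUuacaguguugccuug
mmu-miR-103-2-5p: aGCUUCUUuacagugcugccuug
mmu-miR-103-1-5p: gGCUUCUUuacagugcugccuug
The table lists these microRNA genes at a mean normalized count of 0.472 (*Mir107*), 0.173 (*Mir103-2*) and 0 (*Mir103-1*), far below their hosts. Libraries made from mRNA do not capture mature microRNAs of about this length, so these values do not measure them, and no level of miR-107 or miR-103 can be read from the level of a host.

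**Figure D2:**
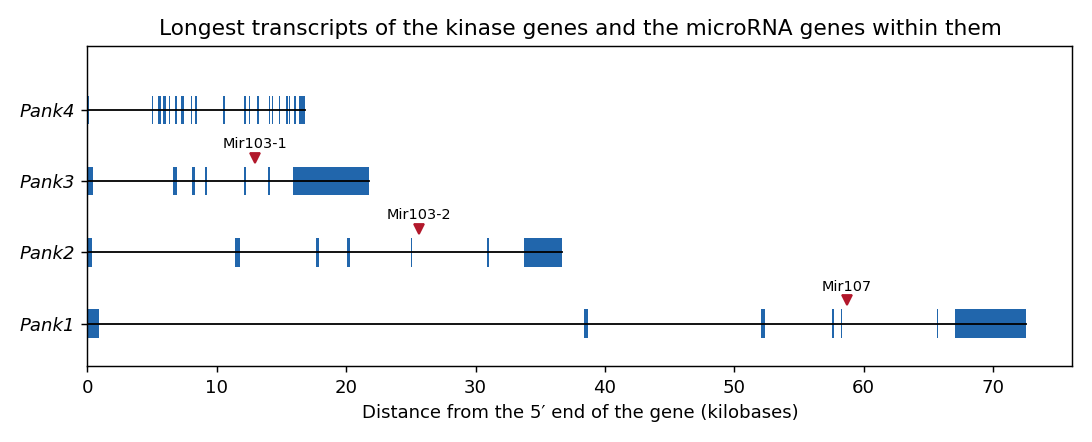
Longest annotated transcript of each pantothenate kinase gene, drawn to scale as distance in kilobases from the 5′ end of the gene, with exons as blue boxes, introns as lines and microRNA genes as red triangles. The microRNA genes sit in intron 5 of *Pank1*, *Pank2* and *Pank3*, and *Pank4* has none.

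*Ppcs*, which joins cysteine to phosphopantothenate, had a mean normalized count of 527 and a level of 341 per kilobase of longest transcript. *Coasy*, the bifunctional synthase of the last steps, had a mean normalized count of 4346 and a level of 1822 per kilobase, 5.33-fold that of *Ppcs*. The ratio was 4.62 with all exons joined, 4.56 with the coding sequence and 8.25 without division by length. *Ppcdc*, the decarboxylase between them, stood at 170.5 per kilobase, and *Slc5a6*, the carrier that brings pantothenate into the cell, at 127. *Dcakd*, which carries a domain like that of the dephospho-CoA kinase part of *Coasy*, reached 396. *Ppcs* (ENSMUSG00000028636) lies on chromosome 4 from 119418530 to 119422420 on the minus strand, and *Coasy* (ENSMUSG00000001755) on chromosome 11 from 101082565 to 101086619 on the plus strand. Both are compact, with spans of 3891 and 4055 bases.

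Enzymes that cleave coenzyme A were represented by *Nudt7*, a peroxisomal hydrolase of the liver, and *Nudt19*, a peroxisomal hydrolase known best from kidney. *Nudt7* had a mean normalized count of 8013, rank 489 of expressed genes, and *Nudt19* one of 1618, rank 2571. Per kilobase of longest transcript *Nudt7* stood at 2262 and *Nudt19* at 704, a 3.21-fold difference that became 2.36-fold with all exons joined, 6.80-fold with the coding sequence and 4.95-fold without division by length. *Nudt8*, the mitochondrial hydrolase of coenzyme A, stood at 317, 7.13-fold below *Nudt7*. That ratio was 4.72 with all exons joined, 18.9 with the coding sequence and 23.4 without division by length. *Nudt19* and *Nudt8* share sequence with other genes, as described below, so their ratios to *Nudt7* are uncertain beyond the choice of length. The table holds 21 genes with a *Nudt* symbol and a number, most of which act on other nucleotides. *Nudt7* was the second highest of them per kilobase, after *Nudt4* at 2960.0, and *Nudt19* came at rank 4 behind *Nudt9* at 720.3. Without division by length this last order was reversed, with *Nudt19* at 1618 and *Nudt9* at 1072. *Nudt7* (ENSMUSG00000031767) lies on chromosome 8 from 114133557 to 114154739 on the plus strand and *Nudt19* (ENSMUSG00000034875) on chromosome 7 from 35547185 to 35556304 on the minus strand.

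Vanins, which split pantetheine into pantothenate and cysteamine, were both well expressed. *Vnn1* had a mean normalized count of 4597 and *Vnn3* one of 2476. Per kilobase of longest transcript they stood at 1903 and 1367, and 6.83% and 9.02% of expressed genes were at or above them. The difference was 1.39-fold, also with all exons joined, 1.81-fold with the coding sequence and 1.86-fold without division by length. They are neighbours on the plus strand of chromosome 10, *Vnn3* (ENSMUSG00000020010) from 23851462 to 23869843 and *Vnn1* (ENSMUSG00000037440) from 23894688 to 23905343, with 24844 bases and 0 annotated genes between them. Their longest transcripts have 7 exons each. The longest coding sequences were identical at 67.3% of aligned bases with gaps left out, against 61.3% for *Nudt7* and *Nudt19*.

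**Figure D3:**
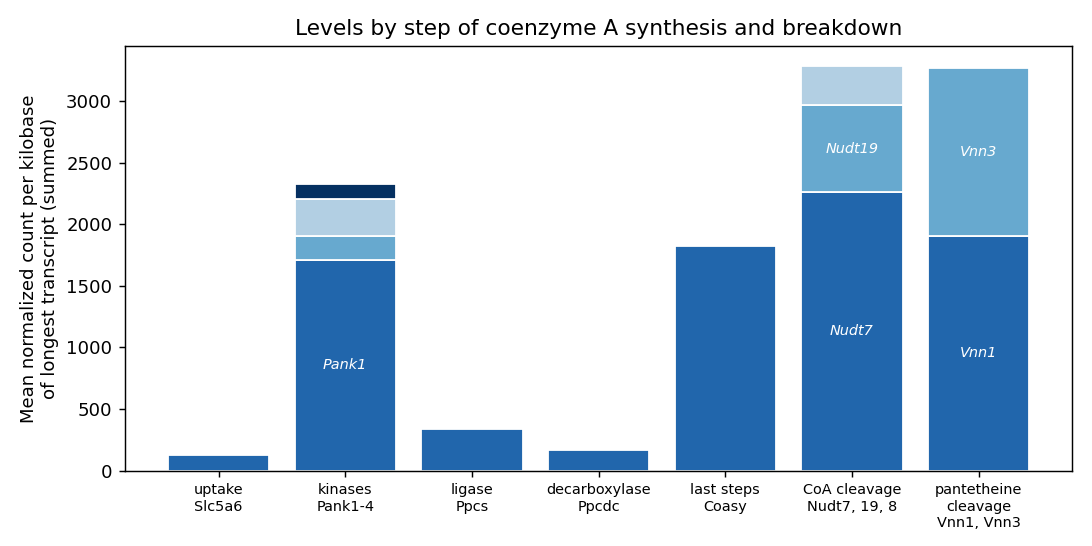
Mean normalized count per kilobase of longest transcript for each step of coenzyme A synthesis and breakdown, stacked over the genes of a step, on a linear axis from 0 with both genotypes pooled. The kinase genes, with *Pank4* counted among them, summed to 2324, mostly *Pank1*. The vanins summed to 3270.3 and *Nudt7*, *Nudt19* and *Nudt8* to 3283. As single genes, *Ppcs* (341) and *Ppcdc* (170.5) lay above the median expressed gene (129) and *Slc5a6* (127) close to it. Levels of *Pank2*, *Nudt19*, *Nudt8* and *Slc5a6* are uncertain because they share sequence with other genes.

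A second list of 10 pathway genes included *Slc5a6*, *Ppcdc*, *Dcakd* and *Nudt8*, whose levels are given above. Its median was 356 per kilobase, against 1036 for the 10 coenzyme A genes of the opening and 129 for all expressed genes. The medians of the 2 lists were 295 and 986 with all exons joined and 941 and 1817 with the coding sequence. Without division by length they were 1116 and 2339. All 10 genes of the second list were expressed and 5 lay in the top 25%. The carriers assigned to coenzyme A in mitochondria and peroxisomes were the highest of them, *Slc25a16* at 1067, *Slc25a42* at 993 and *Slc25a17* at 818 per kilobase. The ectoenzymes *Enpp3* and *Enpp1*, which cleave nucleotides outside the cell, stood at 741 and 210.0. *Aasdhppt*, which transfers the phosphopantetheine part to proteins, stood at 289. These are descriptions of 2 lists, and no test was run between them.

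**Figure D4:**
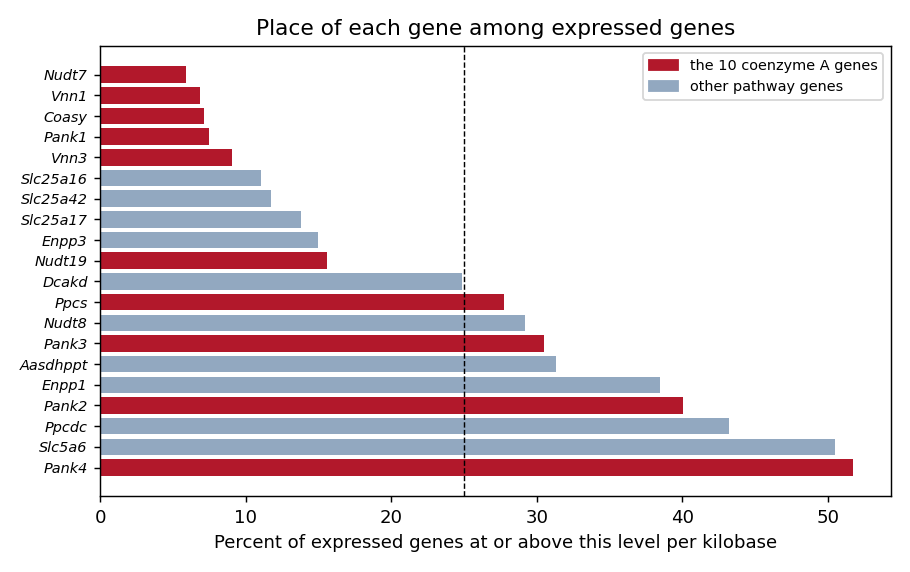
Percent of expressed genes with a level per kilobase of longest transcript at or above that of each gene, so that a short bar marks a highly expressed gene, for the 10 coenzyme A genes (red) and 10 other pathway genes (grey). The dashed line marks the top 25%, and *Nudt7* at 5.86% and *Pank4* at 51.7% are the extremes of the 10 genes.

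Reads that fit more than 1 gene can be lost or misplaced, so the longest transcripts were cut into windows of the 75-base read length and searched for in the transcripts of all other genes. *Pank1*, *Pank3*, *Pank4*, *Ppcs*, *Coasy*, *Nudt7*, *Vnn1* and *Vnn3* had 0 windows in common with another gene. *Nudt19* shared 38.8% of its windows with *B230322F03Rik*, a gene on the other strand with which it has 938 exonic bases in common. *Pank2* shared 25.1% with *Rnf24*, also on the other strand, and has 359 exonic bases in common with *Gm14233* on its own strand. *Nudt8* shared 81.0% and *Slc5a6* 14.3% with other genes. Whether reads were counted by strand is not given in the sources used here, so the levels of *Nudt19*, *Pank2*, *Nudt8* and *Slc5a6* are uncertain. In the same table *Ass1*, an abundant urea cycle gene of hepatocytes, had a mean normalized count of 34.5 and shared 46.9% of its windows with *Gm5424*. *Hba-a1* and *Hbb-bs*, listed at 0, shared 62.2% and 64.3% with their twin genes *Hba-a2* and *Hbb-bt*. The part of shared sequence in these values was not tested.

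The sequences before the gene starts differed in base composition, and 4 of them are shown because they belong to the leading kinase, another kinase with a lower level, the leading hydrolase and a vanin. The RefSeq promoter table used here matched 8 of the 10 genes by symbol, with 12 entries, and *Vnn1* and *Coasy* were not analysed. The 250 bases before each start were searched on both strands for 4 short motifs, and matches are in capitals. The starts are those of RefSeq and differ in part from the GENCODE positions given above. The *Nudt19* window, the *Pank1* window from 34877918 and the *Pank2* window from 131262589 lie inside the GENCODE gene. Others, among them those of *Nudt7* and *Pank3*, run past the GENCODE start. Of all 32851 such windows in the table, 6.02% held CACGTG and 12.4% held TATAAA. The letters CCAAT occurred in 33.8% and GGGCGG in 32.7%. The median window held 6 CG pairs. The windows below are from GRCm38.p6, written in the direction of transcription.
Pank1, chr19:34879456-34879705, minus strand: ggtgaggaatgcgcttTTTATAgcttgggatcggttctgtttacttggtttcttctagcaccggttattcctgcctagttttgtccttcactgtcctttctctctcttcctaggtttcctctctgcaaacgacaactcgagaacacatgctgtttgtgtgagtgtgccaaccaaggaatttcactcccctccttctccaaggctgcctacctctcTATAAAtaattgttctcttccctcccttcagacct
Pank3, chr11:35769245-35769494, plus strand: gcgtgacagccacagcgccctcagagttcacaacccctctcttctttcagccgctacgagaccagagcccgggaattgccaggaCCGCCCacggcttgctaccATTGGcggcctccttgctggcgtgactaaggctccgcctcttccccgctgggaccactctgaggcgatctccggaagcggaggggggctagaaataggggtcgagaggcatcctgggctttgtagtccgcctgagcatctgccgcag
Nudt7, chr8:114133324-114133573, plus strand: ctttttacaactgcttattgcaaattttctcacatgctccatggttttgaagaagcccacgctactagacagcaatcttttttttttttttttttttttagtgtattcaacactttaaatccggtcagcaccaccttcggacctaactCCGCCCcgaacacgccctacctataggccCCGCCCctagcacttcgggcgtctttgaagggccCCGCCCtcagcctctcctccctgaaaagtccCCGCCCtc
Vnn3, chr10:23851212-23851461, plus strand: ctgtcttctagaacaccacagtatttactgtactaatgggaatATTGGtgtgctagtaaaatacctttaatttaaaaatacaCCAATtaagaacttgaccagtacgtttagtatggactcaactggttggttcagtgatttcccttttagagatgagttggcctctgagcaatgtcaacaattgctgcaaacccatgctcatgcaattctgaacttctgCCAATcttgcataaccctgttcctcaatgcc

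The *Pank1* window held 5 CG pairs and TATAAA at 35 and 234 bases before the start. The other *Pank1* window, from 34877918 to 34878167, had 7 CG pairs, CCAAT at 214 and 76 bases before the start and no TATAAA. The *Pank3* window held 17 CG pairs, 1 CCAAT and 1 GGGCGG, and the *Nudt7* window 11 CG pairs and 4 matches to GGGCGG. *Vnn3* had 1 CG pair, fewer than in most windows, since 7.87% of all windows held fewer, and 3 matches to CCAAT. None of the 12 entries held CACGTG, which says only that these letters are not in these windows. The *Ppcs* and *Nudt19* windows, with 14 and 10 CG pairs, held none of the letters searched. A *Pank2* window with 2 CG pairs held none either. Other *Pank2* windows had 22 and 42 CG pairs, each with 1 GGGCGG, and the former also had 2 matches to CCAAT. The *Pank4* window held 11 CG pairs, 1 CCAAT and 1 GGGCGG. The *Nudt7* window that is not shown held 14 CG pairs and 4 matches to GGGCGG. A match is a description of the letters and not evidence of binding.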

How the data were processed

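The authors sequenced KAPA mRNA libraries from the livers of 3 WT and 3 *Pai-1*+/- mice as 75-base single-end reads, which were aligned to mm10 with STAR and compared with DESeq2 in the RNA Express application. HOMER also appears in the submitters' processing notes. Software versions, the gene annotation and the strand setting are not given in the sources used here. The signal used, a mean of counts over size factors for each gene, was deposited by the authors. The remaining columns of that table (fold changes, standard errors, Wald statistics, p-values) are their comparison and were not used. A second file holds counts in 6 columns whose headings match no label, and these were not used, so the planned edgeR test could not be run and totals for each library are not given.

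Lengths, exons and positions came from GENCODE M21, where 96.4% of 12971 genes above a mean of 10 matched 1 gene by symbol. Windows of 75 bases were searched in all GENCODE transcripts on both strands. Coding sequences were aligned globally with Biopython 1.88, tables were handled with pandas 2.3.3 and figures drawn with Matplotlib 3.10.9. The ranking was checked on values with known ranks. The 10 genes and the lists were chosen with earlier results of these data known. Every gene of the set is named, and other pathway genes are named where a level is described. Motifs and the promoters shown were chosen after values were seen. The level of the targeted gene is not reported here.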

Additional observations from a re-analysis of the deposited data

How the results depend on the processing

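The number of the 10 coenzyme A genes in the top 25% of genes was 6, and it was 8 with all exons joined, 7 with the coding sequence, 7 without division by length and 9 when ranked among all genes of the table, where unexpressed genes widen the background. For the other pathway genes the number was 5, and it was 5 with all exons joined, 4 with the coding sequence, 5 without division by length and 9 when ranked among all genes of the table. Coding sequence as length, no length and, for the other pathway genes, all exons joined were chosen after seeing the data. The order of the 10 genes was kept for 41 of 45 pairs with all exons joined, 39 with the coding sequence and 39 without division by length. No paired analysis was possible because no count column could be given to a mouse or a genotype. For the same reason the planned fits with other normalization, filters, tools, thresholds and left-out replicates were not run, and length from a protein table was not run because no such table was used here. Without values for single mice, no level has an error.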
